A study of Mus musculus with 12 samples.

Results

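The genes described here encode the protein components of the mitochondrial ribosome, chosen as every gene whose single symbol in the array's probe table begins with Mrpl or Mrps followed by a digit. There were 76 such genes among 18193 genes with a probe set of their own, 47 with an Mrpl symbol (large subunit) and 29 with an Mrps symbol (small subunit). Mouse RNA was measured on 12 expression arrays in 4 groups of 3, in a study whose title announces a comparison of amplification methods for nanogram amounts of RNA. The groups were mouse kidney total RNA supplied by Ambion at 10 ng, and Universal Mouse Reference RNA (Strategene, as the labels spell it), a commercial pool made from cell lines, at 0.3, 3 and 10 ng. Every title also holds the letters pRS, left unexplained there, and neither the strain, age and sex of the kidney donors nor the origin of the replicates is stated. The p-values therefore measure only the spread between these arrays, which may be technical, and the number of arrays limits the precision.

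Mitochondrial ribosomes translate the few messages encoded by the mitochondrial genome, all of them for hydrophobic core subunits of the oxidative phosphorylation complexes. Their RNAs come from mitochondrial DNA, whereas every one of their proteins is encoded in the nucleus, made in the cytosol and imported. Around a core of proteins inherited from bacteria lie others found only in mitochondria. The kidney, whose tubule cells reabsorb solutes with energy from respiration, is a tissue rich in mitochondria.

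The tissue labels were checked on marker genes. All 6 tested kidney markers of 8 listed were higher in kidney than in the reference at 10 ng, and the summed signal of the 7 measured was 36844 to 37722 over the kidney arrays and 156 to 191 over the reference arrays. Umod, Slc12a1, Slc34a1, Lrp2 and Nphs1 averaged below background in the reference. Umod, the urinary glycoprotein of the thick ascending limb, had a signal of 10850 ± 53.3 in kidney against 14.6 ± 9.15 in the reference (mean ± SD, n = 3 arrays each). All 9 measured markers of dividing cells, of 10 listed, were lower in kidney, with a summed signal of 6543 to 7997 over the kidney arrays and 40208 to 40462 over the reference arrays, and Bub1 and Aurka averaged below background in kidney. Of 4 blood and endothelial markers, 3 were higher in kidney, among them Hbb-b2 (beta globin) at 8746 ± 110 in kidney against 5.60 ± 2.21 in the reference. The other, Ptprc (CD45), was lower, at 677 ± 76.02 in kidney against 1853 ± 130 in the reference. The summed signal of the 4 was 12552 to 13385 over the kidney arrays and 1762 to 2090 over the reference arrays. Only probe sets whose largest group mean exceeded 65.4 were tested. Tested markers below background in kidney or in the reference thus entered through the group where they were high. Their calls were largely set by that filter, whereas the summed signals took in every measured marker. The part of these differences in cell make-up in the results on the mitoribosomal genes was not tested. In bulk RNA, fewer cells of a type and less RNA per cell cannot be told apart. Signals are in units of a scale on which the trimmed mean of each array is 500, and signals up to 33.7 were taken as background. Between 38.0% and 39.6% of all probe sets lay below background on the kidney arrays. On the reference arrays the share was 40.4% to 42.4% with 0.3 ng, 33.2% to 35.6% with 3 ng and 35.4% to 36.3% with 10 ng.

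The promoters of genes for mitochondrial proteins are known for binding sites of ETS-family factors (NRF-2, also called GABP), NRF-1 and YY1. RefSeq promoter windows of assembly GRCm38.p6, from 250 bases before to 50 after the annotated start, matched 67 of the 76 genes and gave 73 windows. The ETS core CCGGAAG, searched on both strands, occurred in 25 windows or 34.2%, against 8.86% of all 32851 windows and 11.6% of the 21263 windows of protein-coding genes. The YY1 motif ATGGCGG occurred in 16.4% of the mitoribosomal windows, against 4.05% of all windows, and the NRF-1 half-site GCATGCG in 8 of the 73, against 3.58%. The shares of the CCAAT box (39.7% against 37.4%) and the E-box CACGTG (9.59% against 7.15%) lay closer together. The windows were also richer in G and C, with a median of 58.7% against 52.7% over all windows and 56.3% over coding genes, and no adjustment was made for that. The 4 stretches printed here hold these motifs in capitals, for 1 gene that was higher and 1 that was lower in kidney with the ETS core and likewise for the NRF-1 half-site. They are RefSeq GRCm38.p6 sequence, 5′ to 3′ on the gene's strand, 160 bases ending just before the start, and the genes were chosen after their values were seen. Mrpl34, at chr8:71464766-71464925 on the plus strand, carries the ETS core 37 bases before its start. Mrpl52, at chr14:54426749-54426908 on the plus strand, carries it on the other strand 47 bases before its start. Mrpl39, at chr16:84735245-84735404 on the minus strand, carries the NRF-1 half-site on both strands of a palindrome, the first match 124 bases before its start. Mrpl32, at chr13:14613038-14613197 on the minus strand, carries 5 matches, the first 86 bases before its start, and matches on opposite strands overlap in each palindrome.
Mrpl34: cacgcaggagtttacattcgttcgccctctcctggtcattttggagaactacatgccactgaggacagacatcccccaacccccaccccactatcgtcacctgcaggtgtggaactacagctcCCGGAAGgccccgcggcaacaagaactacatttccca
Mrpl52: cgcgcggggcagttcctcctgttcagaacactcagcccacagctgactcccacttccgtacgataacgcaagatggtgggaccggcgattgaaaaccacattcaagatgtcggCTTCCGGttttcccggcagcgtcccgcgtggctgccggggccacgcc
Mrpl39: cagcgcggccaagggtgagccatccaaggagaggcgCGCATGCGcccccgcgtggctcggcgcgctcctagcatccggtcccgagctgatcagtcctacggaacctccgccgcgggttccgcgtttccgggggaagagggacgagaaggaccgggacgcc
Mrpl32: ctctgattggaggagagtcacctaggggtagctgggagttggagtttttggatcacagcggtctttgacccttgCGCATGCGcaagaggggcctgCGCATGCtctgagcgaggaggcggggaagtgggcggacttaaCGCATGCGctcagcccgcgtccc
A match of these letters is a description of the window and not evidence that a factor binds there.

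Every one of the 76 genes was measured above background on all 12 arrays, and all 76 passed the filter on low signals. The median signal of the 76 was 1687 in kidney, and 1504, 1341 and 1553 in the reference at 0.3, 3 and 10 ng. Set against the mean of the reference arrays at 10 ng, the median log2 difference of the 76 genes was 0.08, 0.15 and 0.17 on the kidney arrays and -0.04, 0.11 and -0.07 on the reference arrays at 10 ng themselves. Replicate 2 of the reference thus lay within the range of the kidney arrays by this summary.

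The first comparison asked how the mitoribosomal genes of kidney differ from those of the cell-line pool at the same input. In kidney 20 of the 76 genes rose and 10 fell against the reference at 10 ng (limma, Benjamini-Hochberg adjusted p under 0.05 over all probe sets tested). The 30 called genes are 39.5% of the 76, where 62.7% of the 12820 genes tested were called. The share that rose, 26.3%, stood beside 27.1% of all genes, and the share that fell, 13.2%, beside 35.6%. The differences were small. The median absolute log2 fold change was 0.36 over the 76 genes and 0.90 over all genes, and 4 of the 76 (5.26%) differed by 2-fold or more, where 46.4% of all genes did. All genes tested took in dimmer genes than the 76. Here and in the input comparisons below, fold changes were not set beside those of genes of like signal. The median signed log2 fold change was 0.13 in the 76 genes, with quartiles of -0.23 and 0.53, and -0.19 in all genes, with quartiles of -1.04 and 0.72. Kidney and reference arrays did not overlap in 46 of the 76 (60.5%), where they did not overlap in 73.2% of all genes.

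**Figure D1:**
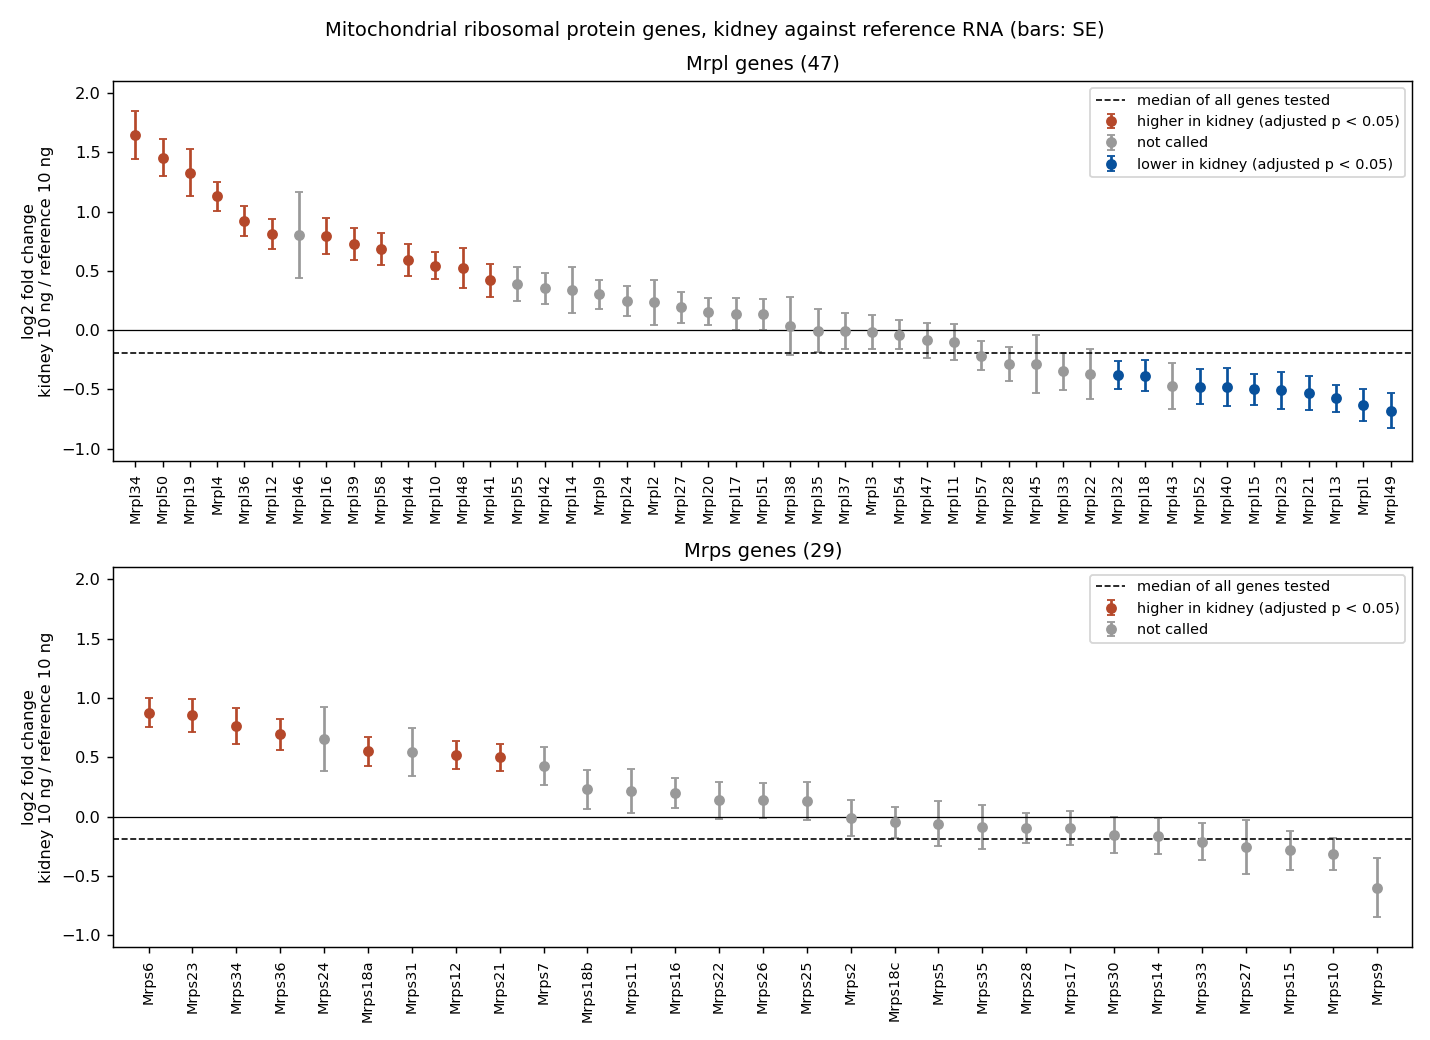
Log2 fold change of kidney over reference, both at 10 ng, for each Mrpl gene (upper panel) and each Mrps gene (lower panel), in order of size, with bars for the standard error. Colour marks the 20 genes that rose, the 10 that fell and those not called. The dashed line gives the median of all genes tested, -0.19. By the probe set shown for each gene, all 10 that fell are Mrpl genes. None of the 10 passed with arrays centred on their medians.

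The large subunit held genes that moved both ways. Among 47 Mrpl genes 13 rose and 10 fell, where 27.1% of all genes rose and 35.6% fell. The median log2 fold change of the Mrpl genes was 0.13. Mrpl34, the mitochondrial form of bacterial L34, had signals of 1478, 1486 and 2127 on the kidney arrays, against 537, 611 and 460 on the reference arrays at 10 ng. All kidney arrays lay above all reference arrays, and the log2 fold change was 1.64 ± 0.205 (SE; limma, adjusted p = 0.0012). Mrpl50, a protein with no bacterial counterpart, had signals of 2442, 2319 and 2365 in kidney, against 986, 720 and 909 in the reference. It differed by 1.45 ± 0.158 on the log2 scale (adjusted p = 0.000701), and the groups again lay apart. Mrpl19, of the bacterial L19 family, had signals of 1616, 1093 and 1168 in kidney, against 465, 571 and 486 in the reference, a log2 fold change of 1.33 ± 0.196 (adjusted p = 0.00227). Here the lowest kidney array still exceeded the highest reference array.

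Mrpl4, a protein of the tunnel through which the new chain leaves, averaged 725 ± 39.5 in kidney and 330 ± 21.7 in the reference (SD, n = 3 each; log2 fold change 1.13, adjusted p = 0.000737). Mrpl36, of the bacterial L36 family, averaged 1454 ± 53.2 in kidney and 768 ± 60.2 in the reference (0.92, adjusted p = 0.00164). Mrpl12, the protein of the stalk that recruits translation factors and reported to bind mitochondrial RNA polymerase, had signals of 4326, 3946 and 3996 in kidney, against 2273, 2557 and 2172 in the reference. The arrays lay apart, with a log2 fold change of 0.81 ± 0.129 (adjusted p = 0.003). Its stalk partner Mrpl10 averaged 509 ± 20.5 in kidney and 349 ± 8.41 in the reference (0.54, adjusted p = 0.00874). Mrpl39, a protein related in sequence to threonyl-tRNA synthetase, had signals of 2679, 2681 and 2846 in kidney, against 1871, 1540 and 1569 in the reference (0.72, adjusted p = 0.0054). Mrpl44, with an RNase III fold, was higher at 0.59 (adjusted p = 0.0126), and Mrpl58, a peptidyl-tRNA hydrolase taken into the ribosome, at 0.69 (adjusted p = 0.00669). Mrpl48, of the central protuberance, was close to the threshold at 0.52 ± 0.17 (adjusted p = 0.0393).

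The 10 genes that fell in kidney did so by little, with log2 fold changes from -0.68 to -0.38. Mrpl49 had signals of 383, 322 and 362 in kidney, against 633, 578 and 508 in the reference. It had the lowest log2 fold change of the 76, at -0.68 ± 0.146 (adjusted p = 0.00945), with no overlap of the arrays. Mrpl13, of the bacterial L13 family, had signals of 3493, 3550 and 3760 in kidney, against 5440, 5527 and 5124 in the reference. It differed by -0.57 ± 0.116 (adjusted p = 0.00745), again without overlap. Mrpl1, of the mobile L1 stalk, averaged 631 ± 24.3 in kidney and 983 ± 107 in the reference (-0.63, adjusted p = 0.00915).

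Mrpl52, a protein found only in mitochondrial ribosomes, had signals of 6913, 8426 and 7564 in kidney, against 10174, 11944 and 9756 in the reference. The arrays did not overlap, and the log2 fold change was -0.48 ± 0.149 (adjusted p = 0.0348). Mrpl21, Mrpl23, Mrpl15 and Mrpl40 had log2 fold changes of -0.53, -0.51, -0.50 and -0.48, with adjusted p from 0.0196 to 0.0434; Mrpl23 belongs to a family that sits at the tunnel exit. The other genes that fell were Mrpl32, at 2461 ± 129 in kidney against 3195 ± 129 in the reference (-0.38, adjusted p = 0.0357), and Mrpl18, at 2366 ± 259 in kidney against 3077 ± 70.3 in the reference (-0.38, adjusted p = 0.048). The count of 10 depended on single arrays and on the median-centred scaling. Under quantile normalization all 10 stayed called lower, where 29.4% of all genes were called higher and 32.4% lower. A single fit over all 12 arrays called 16 of the 76 genes higher and 4 lower. The share of all genes called was not counted in that fit or with 1 array left out. The count of genes that fell lay between 4 and 8 when 1 array was left out in turn. It was 5, 8 and 4 without kidney replicates 1, 2 and 3, and 4, 5 and 6 without reference replicates 1, 2 and 3. Only Mrpl1, Mrpl13 and Mrpl49 stayed called lower in each of these fits, whereas 18 of the 20 that rose did, all but Mrpl41 and Mrpl48. With each array centred on its own median in place of its trimmed mean, the fold changes of all genes moved so that their median was 0.06, and then 30 of the 76 genes were called higher and 0 lower (limma, adjusted p), 19 of them Mrpl and 11 Mrps genes, where 32.9% of all genes were called higher and 27.3% lower. In that scaling the 10 kept negative log2 fold changes, from -0.43 to -0.13, with adjusted p from 0.0588 to 0.412.

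Beside the 27.1% of all genes that rose and the 35.6% that fell, 7 of 29 Mrps genes rose and 0 fell in kidney (limma). These counts are on the probe set chosen for each gene. At an unadjusted p under 0.05, 9 were higher and 0 lower, where 67.2% of all genes passed in either direction. Their median log2 fold change was 0.14, and it turned to -0.16 over the second probe sets of those genes that had several tested. Another probe set of Mrps9, 1418034_at, was called lower (-0.87, adjusted p = 0.0111). So was 1458999_at of Mrps10 (-2.66, adjusted p = 0.00128), which averaged 4.2 in kidney, below background. Whether the small subunit differs from the large one was not tested. Mrps6, of the bacterial S6 family, had signals of 8298, 8534 and 8597 in kidney, against 4480, 5069 and 4329 in the reference. The groups lay apart, with a log2 fold change of 0.88 ± 0.124 (adjusted p = 0.00195). Mrps23, a protein of mitochondrial ribosomes only, had signals of 2005, 2426 and 2387 in kidney, against 1327, 1167 and 1263 in the reference (0.85, adjusted p = 0.00327). Mrps34, also without a bacterial counterpart, averaged 661 ± 77.5 in kidney and 387 ± 38.9 in the reference (0.76, adjusted p = 0.00701). Mrps21 averaged 5965 ± 195 in kidney and 4222 ± 191 in the reference (0.50, adjusted p = 0.0125), and Mrps12, of the decoding site, was higher at 0.52 (adjusted p = 0.0122).

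Symbols and structure do not fully match. Mrps36, named for the small subunit but now known as a subunit of the oxoglutarate dehydrogenase complex, averaged 6551 ± 349 in kidney and 4054 ± 337 in the reference, and rose by 0.69 on the log2 scale (adjusted p = 0.00546). Mrps18a and Mrps30 sit in the large subunit. Of all genes tested, 27.1% rose and 35.6% fell in kidney. Sorted by where the protein sits, 14 of 49 large-subunit genes rose and 10 fell, and 5 of 26 small-subunit genes rose and 0 fell. This sort covers only genes with Mrpl or Mrps symbols. Ptcd3, Dap3 and Chchd1, small-subunit proteins with other symbols described below, all fell. Among large-subunit proteins with a bacterial counterpart 7 of 28 rose and 7 fell, and among those found only in mitochondria 7 of 21 rose and 3 fell. Of the corresponding small-subunit genes 3 of 16 rose, against 2 of 10 of the mitochondrial ones.

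The genes of the bacterial S18 family in mitochondria are 3 paralogues. Mrps18a, whose protein sits in the large subunit, had signals of 1383, 1368 and 1373 in kidney, against 871, 1001 and 948 in the reference. Its arrays lay apart, with a log2 fold change of 0.55 ± 0.12 (adjusted p = 0.00985). Mrps18b and Mrps18c, both in the small subunit, were not called. Mrps18b averaged 1815 ± 42.8 in kidney and 1562 ± 271 in the reference (0.23 ± 0.162, adjusted p = 0.261), with overlapping arrays. Mrps18c averaged 2015 ± 149 in kidney and 2083 ± 129 in the reference (-0.05 ± 0.128, adjusted p = 0.761). The differences between the paralogues were not tested against each other.

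Among the 46 genes not called, the log2 fold changes lay between -0.60 and 0.80. Kidney arrays lay wholly above the reference arrays in 11 of them and wholly below in 5, and overlapped them in 30. Over all genes tested, called or not, the arrays did not overlap in 73.2%, and the share among uncalled genes alone was not counted. Mrpl11, of the L11 family at the base of the stalk, averaged 7869 ± 555 in kidney and 8484 ± 1130 in the reference (-0.10, adjusted p = 0.588), and Mrpl51 averaged 7390 ± 414 in kidney and 6745 ± 528 in the reference (0.13, adjusted p = 0.401). The other probe sets of Mrpl51 were both called higher in kidney, at 0.88 (adjusted p = 0.00643) and 1.54 (adjusted p = 0.000405). The largest uncalled difference was that of Mrpl46, of the central protuberance, with signals of 454, 442 and 921 in kidney, against 407, 236 and 359 in the reference. Its kidney arrays lay above the reference, but 1 of them stood far from the others, and the log2 fold change of 0.80 ± 0.363 did not pass (adjusted p = 0.104). Mrps24, of the bacterial S3 family, had signals of 2505, 2427 and 3305 in kidney, against 1847, 2285 and 1218 in the reference (0.65, adjusted p = 0.0834). Mrpl43 lay lower on all kidney arrays, at 869, 1031 and 684, against 1097, 1123 and 1335 in the reference (-0.47, adjusted p = 0.0797).

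**Figure D2:**
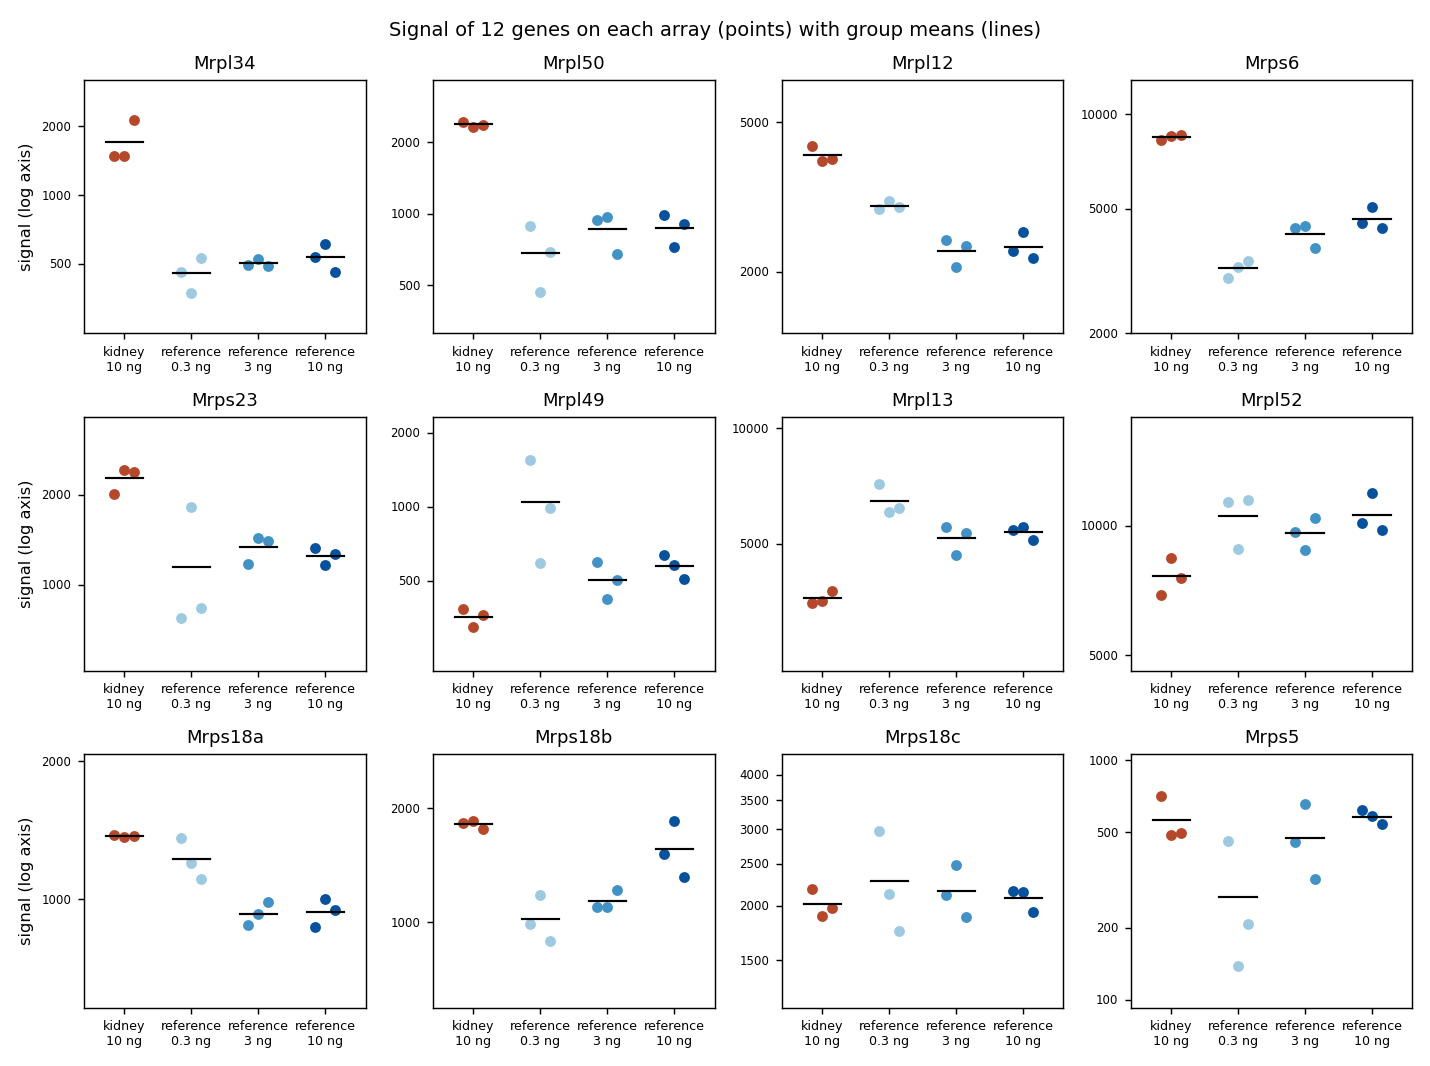
Signal of 12 mitoribosomal genes on each array (points, log axis) with the group means (lines), for kidney at 10 ng and the reference at 0.3, 3 and 10 ng. The kidney points lie above all reference points at 10 ng in Mrpl34, Mrpl50, Mrpl12, Mrps6, Mrps23 and Mrps18a and below them in Mrpl49, Mrpl13 and Mrpl52, and the points at 0.3 ng are the most scattered in Mrpl49, Mrps23 and Mrps5.

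A gene was described by 1 probe set, and others of the same gene did not always move alike. The 76 genes had 156 probe sets, and 36 genes had several that were tested. Counting any tested probe set, 24 genes were called higher in kidney and 15 lower. The matching counts over all genes were not made, and a gene with more probe sets has more chances of a call. In 15 of the 36 the probe sets gave log2 fold changes of both signs, and in 4 (Mrpl1, Mrpl3, Mrpl19 and Mrpl49) there were calls in both directions. Both Mrpl3 calls came from dim probe sets. These were 1440636_at, at 139 in kidney and 36.3 in the reference, and 1431006_at, at 38.4 and 118. Its chosen probe set, at 711 and 718, was not called (adjusted p = 0.922). Mrpl49 was lower on 1423219_a_at, as given above, but its probe set 1423218_a_at had 674 ± 121 in kidney and 439 ± 80.2 in the reference (0.61, adjusted p = 0.0448). Mrpl1 was likewise higher on 1423351_at, at 952 ± 157 in kidney and 567 ± 144 in the reference (0.76, adjusted p = 0.0322), and lower on 1450948_a_at. Mrpl19 was higher on 1421913_at and lower on 1450405_at (-0.50, adjusted p = 0.0175). The second probe sets of Mrps21 and Mrps23 gave -0.34 and -0.19, neither called (adjusted p = 0.529 and 0.37). That of Mrps21 was dim, at 61.9 in kidney and 76.3 in the reference. Mrpl48 had -0.23 over the mean of its probe sets (adjusted p = 0.437). Its 2 tested probe sets gave 0.52 and 0.15. The mean also took in 1442016_at, which failed the filter, at 26.8 in kidney and 58.6 in the reference. Several other genes moved alike on all their tested probe sets. Mrpl34 and Mrpl50 were higher on both of theirs, at log2 fold changes of 1.13 and 1.64 and of 1.28 and 1.45, and Mrps6 on both, at 1.17 and 0.88. Mrpl44 was higher on 4 of 4, from 0.59 to 0.81. Mrpl13 was lower on 4 of 4, from -1.40 to -0.57, and Mrpl52 on 4 of 4, from -2.76 to -0.48. The lowest value of each came from a probe set that averaged below background in kidney, at 25.4 for Mrpl13 and 26.3 for Mrpl52.

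Other genes of mitochondrial translation also moved in both directions, where 27.1% of all genes tested rose and 35.6% fell. Of 4 measured proteins of the mitoribosome that carry other symbols, 0 rose and 3 fell (limma; the same counts at an unadjusted p under 0.05). These 3 are all small-subunit proteins. Ptcd3, a pentatricopeptide protein of the small subunit, averaged 367 ± 22.9 in kidney and 823 ± 122 in the reference (-1.15 ± 0.158 on the log2 scale, SE, adjusted p = 0.00173). Dap3, a GTP-binding protein, averaged 1461 ± 153 in kidney and 2271 ± 91.5 in the reference (-0.64, adjusted p = 0.00844). Chchd1 averaged 1534 ± 114 in kidney and 2048 ± 46.5 in the reference (-0.42, adjusted p = 0.0277). Of 14 translation factors 3 rose and 3 fell (21.4% each). Tufm, the elongation factor that delivers tRNA, averaged 1167 in kidney and 632 in the reference (0.87 ± 0.152, SE, adjusted p = 0.00427). Gfm1, the translocase, averaged 1443 ± 66.2 in kidney and 864 ± 99.3 in the reference (0.74, adjusted p = 0.00541). The initiation factor Mtif3 rose by 0.70 (adjusted p = 0.0284). Mtfmt, which formylates the initiator tRNA, averaged 234 ± 12.5 in kidney and 489 ± 26.7 in the reference (-1.05, adjusted p = 0.000892). Of 28 genes for mitoribosome assembly and rRNA maturation 5 rose and 3 fell (17.9% and 10.7%). Rpusd3, of the pseudouridine synthase family, averaged 262 ± 7.50 in kidney and 73.3 ± 4.91 in the reference (1.79, adjusted p = 0.000125). Mettl15 and Nsun4, rRNA methyltransferases, rose by 0.96 (adjusted p = 0.0114) and 0.81 (adjusted p = 0.0369), and Rcc1l, an assembly factor, fell by 0.86 (adjusted p = 0.00919). When each array was centred on its median, the proteins with other symbols had 0 higher and 1 lower. The factors then had 5 higher and 1 lower, and the assembly genes 6 higher and 1 lower. In that scaling 32.9% of all genes were called higher and 27.3% lower.

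Other gene families were set beside the mitoribosomal genes, and beside all genes tested, of which 27.1% rose and 35.6% fell. Of 75 tested nuclear genes for oxidative phosphorylation subunits, 47 rose in kidney and 3 fell, and the median log2 fold change was 0.48. Of 41 tested genes for cytosolic ribosomal proteins 0 rose and 34 fell (median -0.55), from a partial list, and at an unadjusted p under 0.05 there were 0 higher and 39 lower. When each array was centred on its median, 57 oxidative phosphorylation genes rose and 2 fell. Of the cytosolic ribosomal protein genes 0 rose and 14 fell in that scaling, where 32.9% of all genes were called higher and 27.3% lower. The median of the mitoribosomal genes, 0.13, lay between the medians of these families, and the differences between the families were not tested.

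**Figure D3:**
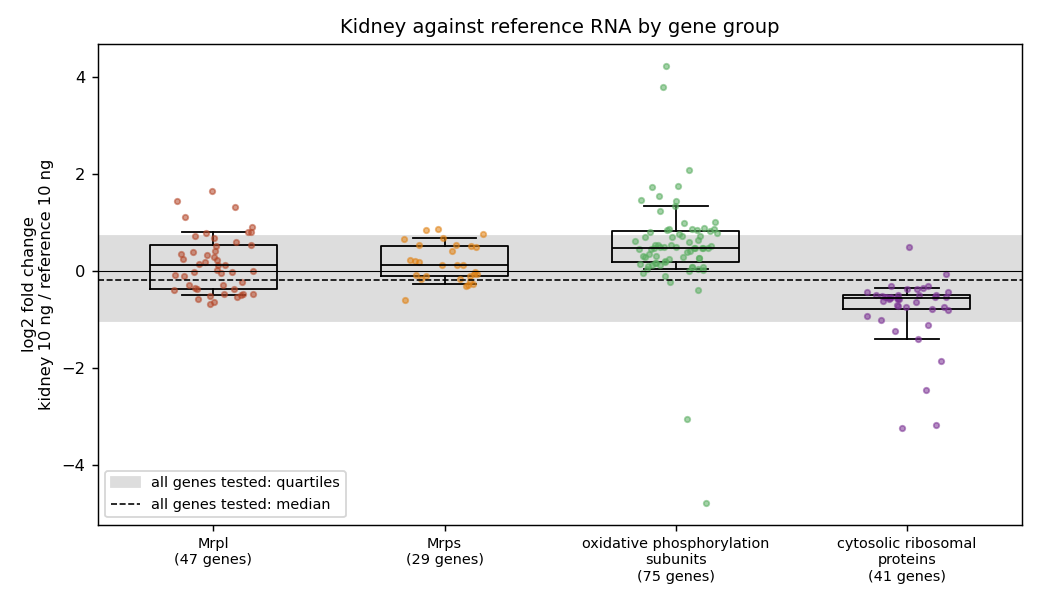
Log2 fold change of kidney over reference at 10 ng for the genes (points) of 4 groups, with boxes for the quartiles and median and whiskers for the 10th and 90th percentiles. The grey band and dashed line give the quartiles and median of all genes tested; the medians are 0.13 for Mrpl, 0.14 for Mrps, 0.48 for oxidative phosphorylation subunits and -0.55 for cytosolic ribosomal proteins.

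The motifs were also counted by the direction of the kidney difference. The ETS core was found in the windows of 7 of 17 matched genes that rose, 3 of 8 that fell and 15 of 42 not called. The NRF-1 half-site was found in 2 of 17, 1 of 8 and 5 of 42 in the same order, and the YY1 motif in 2 of 17, 0 of 8 and 10 of 42. The GC box GGGCGG was found in 4 of 17 that rose, 6 of 8 that fell and 24 of 42 not called. It occurred in 53.4% of the mitoribosomal windows, 35.7% of all windows and 46.2% of the windows of coding genes. Only 3 of the 10 genes that fell stayed called in every fit with 1 array left out. No test was made of these counts.

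The second question was whether the reading of the mitoribosomal genes holds as the input of one RNA shrinks. At 3 ng against 10 ng of reference RNA 0 of the 76 genes were called (limma, lowest adjusted p = 0.369), with 0% of all genes called. At an unadjusted p under 0.05, 0 were higher and 6 lower, where 8.46% of all genes passed in either direction. The median log2 fold change was -0.10 (-0.05 over all genes), with 18 genes positive and 58 negative, and 0 of the 76 differed by 2-fold or more (4.38% of all genes). The arrays lay apart in 14 of the 76 (18.4%; 1 above and 13 below), beside 17.6% of all genes. Mrpl37, a protein of mitochondrial ribosomes only, had signals of 333, 456 and 561 at 3 ng, against 795, 900 and 678 at 10 ng, and no array overlapped. Its log2 fold change was -0.83 (unadjusted p = 0.0127, adjusted p = 0.393). Mrps36 had 2837, 2609 and 2887 at 3 ng, against 4088, 4374 and 3701 at 10 ng (-0.54, adjusted p = 0.369), also apart. The highest positive differences were Mrpl45, at 0.34 (adjusted p = 0.64), and Mrpl28, at 0.32 (adjusted p = 0.544).

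At 0.3 ng against 10 ng 0 of the 76 were called (lowest adjusted p = 0.224), where 0.554% of all genes were. At an unadjusted p under 0.05, 2 were higher and 4 lower (13.4% of all genes in either direction). The median log2 fold change was -0.06, against -0.21 over all genes, with 31 positive and 45 negative and a range of -1.28 to 0.90. It turned positive with arrays centred on their medians (0.38, against 0.22 over all genes) and when the reference array of replicate 2 at 10 ng was left out (0.0385). The arrays lay apart in 23.7% of the 76 genes and 25.2% of all genes, and 2.63% of the 76 differed by 2-fold or more, where 19.1% of all genes did. Mrps5, of the bacterial S5 family, had signals of 460, 139 and 207 at 0.3 ng, against 618, 585 and 540 at 10 ng. All arrays at 0.3 ng were lower, but they spread over more than 3-fold among themselves, and the log2 fold change was -1.28 ± 0.462 (adjusted p = 0.277). Mrps9 had signals of 332, 649 and 309 at 0.3 ng, against 850, 766 and 1215 at 10 ng (-1.18, adjusted p = 0.234). Mrps7, of the bacterial S7 family, lay higher, with 950, 2888 and 1419 at 0.3 ng, against 838, 809 and 880 at 10 ng (0.90, adjusted p = 0.396).

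Mrpl9 had signals of 4352, 2426 and 2138 at 0.3 ng, against 1540, 1558 and 1719 at 10 ng (0.82, adjusted p = 0.324). Some genes with large kidney differences lay apart between inputs as well. Mrps6 had 2991, 3261 and 3399 at 0.3 ng, 4346, 4408 and 3727 at 3 ng and 4480, 5069 and 4329 at 10 ng, so that the arrays at 0.3 ng lay below those at 10 ng (-0.52, adjusted p = 0.33). Mrpl12 had 2935, 3081 and 2970 at 0.3 ng, 2430, 2057 and 2349 at 3 ng and 2273, 2557 and 2172 at 10 ng, so that the arrays at 0.3 ng lay above those at 10 ng (0.36, adjusted p = 0.475). Mrpl34, by contrast, averaged 455 ± 79.6 at 0.3 ng, 504 ± 17.2 at 3 ng and 536 ± 75.3 at 10 ng, with overlapping arrays at all inputs. At 0.3 ng against 3 ng 0 of the 76 were called (limma, lowest adjusted p = 0.24), where 0.172% of all genes were. The median was 0.10, against -0.17 over all genes, and -0.0135 over second probe sets. With centred arrays it was 0.63, against 0.36 over all genes. At an unadjusted p under 0.05, 3 were higher and 1 lower (10.9% of all genes in either direction), and 2 genes differed by 2-fold or more (17.9% of all genes). In that comparison the arrays lay apart in 25% of the 76 genes, and in 21.5% of all genes. Mrps9 had the lowest log2 fold change, -1.27 (adjusted p = 0.391), and Mrpl9 the highest, 1.03 (adjusted p = 0.334). The 3 input comparisons share arrays. An F test by limma over all 9 arrays of the reference called 0 of the 76, with a lowest adjusted p of 0.142, where 1.52% of all genes were called.

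What grew as input shrank was the spread. The SD of log2 signal among the 3 arrays had a median over the 76 genes of 0.103 in kidney, and of 0.377, 0.18 and 0.154 in the reference at 0.3, 3 and 10 ng. At 0.3 ng 22 genes had an SD over 0.5, and 3 had at 3 ng. Genes of like signal had medians of 0.126 in kidney and 0.502, 0.206 and 0.154 in the reference at 0.3, 3 and 10 ng. Pearson's correlation of log2 signals between pairs of arrays over the 76 genes was 0.981 to 0.984 in kidney, 0.851 to 0.924 at 0.3 ng, 0.956 to 0.971 at 3 ng and 0.977 to 0.987 at 10 ng, where the points share an array and differ by probe set. On the array of replicate 1 at 0.3 ng 9 genes lay 2-fold or more from the reference mean at 10 ng, 3 above and 6 below, against 4 and 5 on the other arrays at that input. With the median standard error of a difference at 0.279 on the log2 scale for 0.3 against 10 ng, and at 0.146 for kidney against reference, a difference of a given size was less readily called at the low input.

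**Figure D4:**
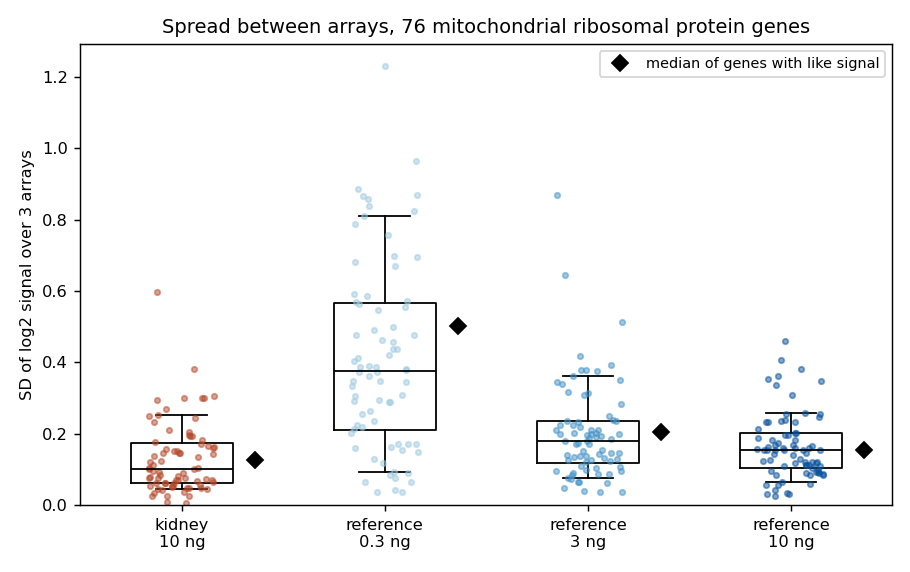
SD of log2 signal over the 3 arrays of a group for each of the 76 genes (points), with boxes for the quartiles and median and whiskers for the 10th and 90th percentiles. Diamonds mark the median of all tested genes of like signal, mitoribosomal genes included. The box at 0.3 ng, with a median of 0.377, lies above those of the other groups.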

How the data were processed

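The deposited values were intensities on a linear scale for each probe set. The values themselves show that each array had been scaled to a 2% trimmed mean of 500. Probe summarisation, background correction, software and genome build: not given in the sources used here. Of 45101 probe sets 64 controls were left out. The tests covered the 27022 probe sets whose largest mean among the 4 groups exceeded a signal of 65.4, the 40th percentile of that quantity. Values were taken to log2 after adding 3.9, the 10th percentile of positive values, so fold changes are on the log2(value + 3.9) scale and understate changes of dim genes. Background, 33.7, was set at the 95th percentile of the signals of 27 Bacillus controls. Genes were named through the platform's probe table, with 34945 probe sets naming 1 gene, 932 several and 9160 none; 34741 were looked up by gene ID in RefSeq (GRCm38.p6) and 0 symbols changed. A gene is represented by whichever of its own probe sets had the highest mean log2 signal.

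Groups and inputs come from the sample titles. The limma package (version 3.58.1, R 4.3.3; lmFit and eBayes) fitted each comparison on its own 3 against 3 arrays, without covariates, and Benjamini-Hochberg adjusted p-values are two-sided over 27022 probe sets at a threshold of 0.05. The fits assume equal spread in both groups, which the 0.3 ng arrays do not meet. The fits were tested on simulated data. The mitoribosomal genes, the lists and the comparisons were chosen with earlier results of these data known. Genes were named by a rule: the 8 called genes with the largest change in each direction whose arrays do not overlap, the 2 largest uncalled differences in each direction for the input comparisons, the highest signals, the Mrps18 paralogues, the largest call of each role group, and up to 4 of each other list. Mrpl10, Mrpl44, Mrpl58, Mrps12, Mrps34, Mrpl3, Mrpl14, Mrpl18, Mrpl32, Mrpl41, Mrpl43, Mrpl46 and Mrps24 fall outside it and were named after their values were seen. Several-gene probe sets, including those of Mrpl30 and Mrpl53, were not used in the comparisons. Alternatives changed the pseudocount, filter, normalization, probe set rule, fit and arrays. Promoter motifs were counted on both strands.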

Additional observations from a re-analysis of the deposited data

Results flagged for a closer look

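Signals above background came from probe sets that name a mitoribosomal gene together with another gene, which no comparison used. All 4 lay above background on 12 of 12 arrays. The probe set 1423857_at, naming Gm6238 and Mrpl30, averaged 4434 over all arrays, with 4145 ± 85.3 in kidney and 4175 ± 306 in the reference at 10 ng (SD, n = 3; limma log2 fold change -0.01, adjusted p = 0.957). The probe set 1447651_x_at, naming the same genes, averaged 176 (90.3 ± 30.3 in kidney, 187 ± 27.5 in the reference, -1.07, adjusted p = 0.0208). The probe set 1448905_at, naming Nme3 and Mrps34, averaged 311 (677 ± 79.6 in kidney, 165 ± 16.3 in the reference, 2.01, adjusted p = 0.000188). The probe set 1451178_at, naming Ccdc142 and Mrpl53, averaged 186 (175 ± 17.01 in kidney, 203 ± 35.95 in the reference, -0.20, adjusted p = 0.36). Which of the named genes gave the signal was not tested.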

How the results depend on the processing

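The median log2 fold change of kidney over reference at 10 ng stayed above 0 and above that of all genes in every alternative run, by 0.20 (quantile normalization) to 0.41 (second probe set), and by 0.32 as reported. In the second probe sets the Mrpl median was 0.21 and the Mrps median turned to -0.16. The count of 30 called genes was 19 (16 higher, 3 lower) without a filter on low signals and 12 of 36 (9 higher, 3 lower) with the second probe set of each gene, and 16 higher and 4 lower with all arrays in one fit. It was 30 with arrays centred on their medians, but all 30 were higher, and the median was then 0.38. Leaving out 1 array at a time gave 22 to 28 calls and a median of 0.08 to 0.18. The pairing check found correlations of -0.06 to 0.01 between same-numbered samples, which share only a number, and in 5 of 12 combinations of comparison and replicate number, which share reference arrays, the correlation was highest for the same number. With a replicate block 20 genes were called (17 higher, 3 lower). For the inputs, the median for 3 against 10 ng was -0.20 with centred arrays and -0.16 to -0.06 with 1 array left out. For 0.3 against 10 ng it was 0.38 with centred arrays, -0.15 over the mean of all probe sets and -0.124 to 0.0385 with 1 array left out, turning positive without reference 10 ng replicate 2. For 0.3 against 3 ng it was 0.63 with centred arrays, -0.0135 with the second probe set, 0.0202 over the mean of all probe sets and 0.0372 to 0.168 with 1 array left out. All arrays in one fit called 2 genes for 0.3 against 10 ng (Mrpl14 and Mrps34) and 1 for 0.3 against 3 ng (Mrpl48). Kidney log2 fold changes reversed on the second probe set in Mrpl1 (0.76), Mrpl19 (-0.39), Mrpl49 (0.61), Mrps21 (-0.34) and Mrps23 (-0.19). That of Mrpl48 reversed over the mean of all probe sets (-0.23), which took in a probe set that failed the filter. The cause of these reversals was not tested. Pseudocounts of 1 and 16 changed no call of a named gene. Among the alternatives, counts of called genes were set beside the share of all genes only for centred arrays and quantile normalization.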
